A study of Mus musculus with 2 samples.

Results

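The annexins are calcium-dependent proteins that bind acidic phospholipids, and 8 annexin genes, Anxa1, Anxa2, Anxa3, Anxa4, Anxa5, Anxa6, Anxa7 and Anxa11, were followed among the 23343 genes of the tables. They were taken as the table entries whose gene symbol equals one of these 8 names. The cells were eosinophils positive for CCR3, a chemokine receptor, and for the lectin SiglecF, and were sorted from the bone marrow of C57BL6J mice that had received no treatment. Marrow was pooled before sorting, and no source used here states the number, age or sex of the mice in a pool. Poly(A) RNA of 2 independent sorts, here sort 1 and sort 2, was sequenced with 1 library each. Both libraries belong to 1 group, so levels are described and the only test is one between the 2 libraries.

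Each annexin has a conserved core that attaches to the inner face of membranes when calcium rises, and a variable amino-terminal tail that decides its partners. The tail of annexin A1 is recognised by formyl peptide receptors on leukocytes and restrains their recruitment, and that of annexin A2 binds the S100 protein S100A10. Other members are known for gathering membranes during granule release, for repair of the plasma membrane and for shielding phosphatidylserine on dying cells.

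To show the part of the messages that encodes these tails, the first 78 bases of the coding sequences of Anxa1 and Anxa2 are given, from the GENCODE transcripts on GRCm38 with the start codon in capitals.
Anxa1: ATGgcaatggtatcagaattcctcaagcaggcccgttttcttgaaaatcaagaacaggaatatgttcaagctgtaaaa
Anxa2: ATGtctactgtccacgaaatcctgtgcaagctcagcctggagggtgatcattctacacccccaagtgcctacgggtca
Across the 28 pairs of members the longest stretch shared by their transcripts was 12 to 18 bases, with a median of 13. No pair of members thus shared an identical stretch longer than 18 bases.

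Reads assigned to genes numbered 10087743 for sort 1 and 9264150 for sort 2. All 8 listed eosinophil markers, led by Ear1 and Prg2, reached 1 RPKM in both sorts, and their summed level was 2720 RPKM in sort 1 and 3515 in sort 2. All 12 listed markers of mature neutrophils present in the tables, led by Retnlg and S100a9, also did, with sums of 4285 and 4003 RPKM. So did the 6 genes listed for neutrophil primary granules and precursors, with 345 and 432. Of these sums Igsf6, which does not encode a granule protein, gave 91.7 and 140. Of the lists for other cell types, monocyte and macrophage markers summed to 255 and 183 RPKM, of which Lyz2 alone gave 175 and 121. Basophil and mast cell markers summed to 32.4 and 34.8. B and plasma cell markers summed to 10.7 and 6.90, T and NK cell markers to 10.6 and 11.5, and erythroid markers to 4.32 and 6.64. The sums were 3.02 and 2.60 for megakaryocyte markers and 10.7 and 10.1 for stromal and endothelial markers, which were almost entirely Pecam1. The sorts stood apart in the female-specific RNA Xist, with 47487 and 5 reads, and in the Y-linked Kdm5d, with 0 and 756. By these genes the RNA of sort 1 was female and that of sort 2 male. Sex and sort thus cannot be told apart in the ratios between the sorts. The ribosomal RNA precursor Rn45s also differed, with 914623 and 89209 reads.

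Values are RPKM, reads per kilobase of transcript scaled to library size, which allow genes of different length to be compared. All 8 annexins reached 1 RPKM, the minimum for a gene to be called detected, in both sorts, as did 30.2% of all 23343 genes. Their median level was 13.95 RPKM in sort 1 and 9.58 in sort 2, beside medians of 4.07 and 3.97 among detected genes. The members differed widely among themselves, and Anxa1 was 27.5 and 25.7 times the level of Anxa4 in sorts 1 and 2. Together the 8 genes took 12983 reads, or 0.129% of sort 1 (95% Wilson interval 0.127 to 0.131), and 10402 reads, or 0.112% of sort 2 (0.110 to 0.114). These intervals cover counting error only. The shares are of all reads assigned to genes, including those of Rn45s, 914623 in sort 1 and 89209 in sort 2. Anxa1 and Anxa6 together made up 64.9% of the summed annexin RPKM in sort 1 and 69.4% in sort 2.

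**Figure D1:**
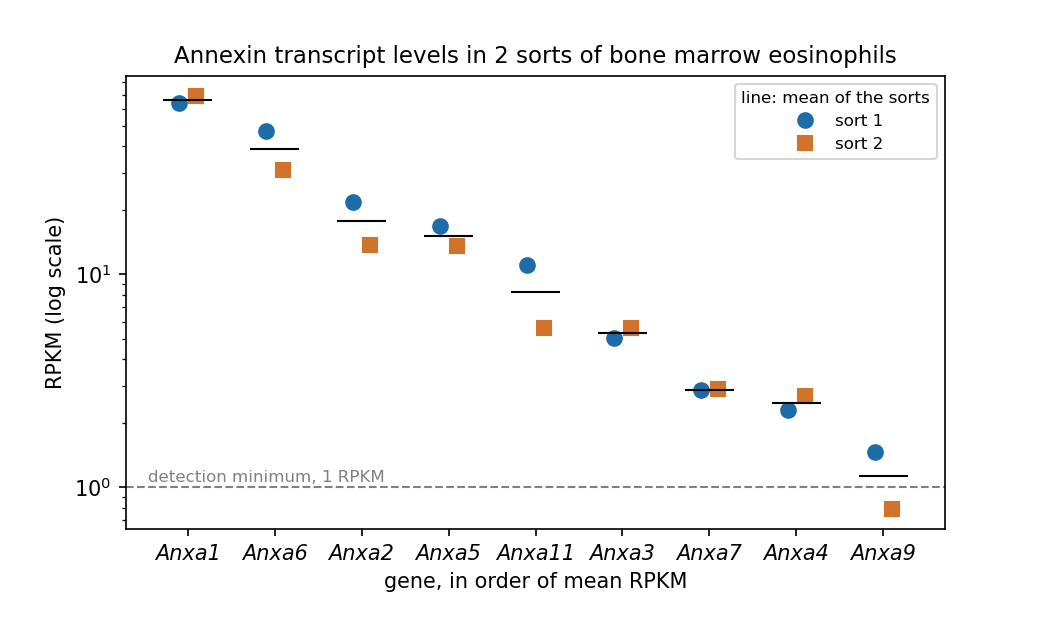
RPKM on a log axis for the 8 annexins and Anxa9, in order of their mean, with a circle for sort 1, a square for sort 2 and a line at the mean. Anxa1 is highest in both sorts, Anxa7 and Anxa4 lie under 3 RPKM, and Anxa9 is drawn as the sum of 2 rows with equal counts, each of which alone lies below the dashed line at 1 RPKM in both sorts.

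Anxa1, annexin A1, a glucocorticoid-responsive mediator that limits leukocyte recruitment, was the highest member in both sorts. It had 63.8 RPKM in sort 1 and 68.8 in sort 2, a mean of 66.3 ± 3.55 (SD, n = 2), from 3604 and 3898 reads. Its 2 values lay close together and above those of every other annexin in the tables. By mean level it stood at place 129 of 23343 genes. The gene lies on the minus strand of chromosome 19 from 20373434 to 20390671 on mm10, and the matched GENCODE transcript has 13 exons. A long noncoding gene annotated on the opposite strand, 1500015L24Rik, spans the whole locus and had no read in either sort. The 3 genes nearest to Anxa1 in log2(RPKM + 1) over both sorts were Emr1, which encodes the F4/80 antigen, with 62.3 and 70.9 RPKM, D4Wsu53e with 64.7 and 74.4, and the RNA helicase gene Ddx5 with 66.1 and 64.0. With 2 libraries of 1 group this likeness is one of level alone.

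Anxa6, whose protein carries 2 joined annexin cores and acts on endosomes and the cortical cytoskeleton, was the second in level. It had 47.1 RPKM in sort 1 and 30.9 in sort 2, a mean of 39.0 ± 11.5 (SD, n = 2). The values of Anxa6 were below both values of Anxa1 and above both of Anxa2, so these neighbours in the order did not overlap. In reads the order of the leading members changed with the sort: Anxa6 had 5068 and 3333 reads against 3604 and 3898 for Anxa1. The Anxa6 transcripts are longer, at 2471 and 2489 bases against 1674 for Anxa1, so the read count alone places it higher than its level per length. The gene occupies chromosome 11 from 54978962 to 55033471 on the minus strand.

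The Anxa6 entry joins 2 RefSeq transcripts in 1 row, so their separate levels are not given by the tables. They differ by exon 21 of 26, a coding exon of 18 bases at chr11:54987051-54987068 on GRCm38. It is shown in capitals, with 21 bases on each side, to make clear what the joint level merges.
Anxa6 with exon 21: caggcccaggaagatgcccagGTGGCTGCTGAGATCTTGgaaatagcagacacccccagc
Anxa6 without exon 21: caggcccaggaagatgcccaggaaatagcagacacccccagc
The values for Anxa6 above are the sum of both forms. The Anxa7 entry likewise joins 2 RefSeq transcripts.

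Anxa2, annexin A2, a membrane and actin organiser that forms a complex with S100A10, had 22.0 RPKM in sort 1 and 13.7 in sort 2, or 17.8 ± 5.85 (SD, n = 2), from 1222 and 764 reads. Anxa5, annexin A5, which binds exposed phosphatidylserine and is the common probe for dying cells, had 16.9 and 13.5 RPKM, or 15.2 ± 2.36, from 1177 and 947 reads. Anxa2 was 1.30 times Anxa5 in sort 1 and 1.01 times in sort 2. Their ranges over the sorts overlapped, so the levels of these neighbours did not differ beyond the spread between sorts, although Anxa2 was the higher within each library. Anxa2 lies on the plus strand of chromosome 9 from 69453683 to 69491785, and Anxa5 on the minus strand of chromosome 3 from 36448924 to 36475887.

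Anxa11, whose protein binds the penta-EF-hand protein ALG-2 and S100A6, had 11.04 RPKM in sort 1 and 5.58 in sort 2, or 8.31 ± 3.86 (SD, n = 2), from 1071 and 543 reads. Anxa3, an annexin described in neutrophils and other phagocytes, had 5.01 and 5.63 RPKM, or 5.32 ± 0.438, from 324 and 365 reads. Anxa11 was 2.20 times Anxa3 in sort 1 and 0.992 times in sort 2, so this pair overlapped as well. Anxa11 is on the plus strand of chromosome 14 from 25842155 to 25886804, with an antisense gene, Anxa11os, annotated over 13490 bases of it. Anxa3 is on the plus strand of chromosome 5 from 96793385 to 96845968. Markers of mature neutrophils were abundant in both libraries, as given above, and the part that RNA of such cells has in the levels of Anxa1 and Anxa3 was not tested. In a bulk library fewer cells of a type and less RNA per cell cannot be told apart.

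The lowest members were Anxa7, or synexin, which promotes fusion of granule membranes, and Anxa4, a membrane-binding annexin best known from secretory epithelia. Anxa7 had 2.86 RPKM in sort 1 and 2.89 in sort 2, or 2.88 ± 0.0253 (SD, n = 2), from 329 and 334 reads. Anxa4 had 2.32 and 2.68 RPKM, or 2.50 ± 0.257, from 188 and 218 reads. Both Anxa4 values were below both of Anxa7, although the gap in sort 2 was small, at a ratio of 1.08. Anxa4 still exceeded 79.1% of all genes, and 30.7% of detected genes were below it. Anxa7 lies on the minus strand of chromosome 14 from 20455261 to 20480133 and Anxa4 on the minus strand of chromosome 6 from 86736840 to 86793584. The 3 genes nearest to Anxa4 in level were Rnf139, Rfx5 and the small nucleolar RNA gene Snord47, with 2.28 to 2.34 RPKM in sort 1 and 2.65 to 2.72 in sort 2.

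The 4 remaining annexin genes of the tables were at the edge of detection or had no read. Anxa9, which encodes an atypical annexin with poor calcium binding, had 1.47 RPKM in sort 1 and 0.794 in sort 2, from 110 and 60 reads. Its sums come from 2 rows for transcripts with different starts, which held the same count of 55 reads each in sort 1 and 30 each in sort 2. Anxa8, Anxa10 and Anxa13 had no read in either sort, and a count of 0 allows up to 3 reads in each library. Whether the 2 rows of Anxa9 hold the same reads is not known, so the Anxa9 sum may be too high by a factor of 2. A single row had 0.730 or 0.738 RPKM in sort 1 and 0.395 or 0.399 in sort 2, below the minimum of 1 RPKM in both sorts.

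Upstream sequence was compared because the members share a protein fold but not a level. RefSeq promoter windows on GRCm38.p6, from 250 bases before to 50 after the transcript start, matched 6 of the 8 members, all but Anxa3 and Anxa6. The motif TATAAA, searched on both strands, was present in the windows of Anxa1 and Anxa2, and 13.6% of all 32851 windows hold it. The GC box GGGCGG was present in those of Anxa2, Anxa4, Anxa7 and Anxa11, against 35.7% of all windows. CCAAT and the GATA motif AGATAA were in none of the 6 windows, against 37.4% and 11.2% of all windows. GAGGAA, a core of PU.1 sites, was in those of Anxa1 and Anxa11, against 28.3%. None of these motifs contains another. The windows held 3 CpG in Anxa1, 4 in Anxa7, 13 in Anxa2, 16 in Anxa5, 20 in Anxa4 and 25 in Anxa11, beside a median of 7 over all windows.

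The stretches with these matches nearest the start are shown for the highest member, for Anxa2 and for the member that differed most between the sorts, with matches in capitals.
Anxa1, chr19:20390682-20390711, minus strand, bases -40 to -11: tcatatccTATAAAatcaggagtccaaccc
Anxa2, chr9:69453643-69453672, plus strand, bases -40 to -11: tcgcgctgggaggatgGGGCGGgTATAAAa
Anxa11, chr14:25842095-25842154, plus strand, bases -60 to -1: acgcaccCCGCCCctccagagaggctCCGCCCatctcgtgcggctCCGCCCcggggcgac
The TATAAA match of Anxa1 begins 32 bases before the start and that of Anxa2 17 bases before it. In Anxa11 the GC box occurs 3 times on the opposite strand, read as CCGCCC. Matches describe letters in these windows and were not tied to the levels by any test.

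The libraries were next compared to see which annexins differed between the sorts by more than counting noise. The exact two-sided binomial test used TMM-scaled library sizes and the Benjamini-Hochberg adjustment, taken over the 12347 genes that had 10 or more reads in both libraries together. It compares 2 libraries and not conditions. No annexin was called at an adjusted p under 0.05 with a fold of at least 2, against 7.57% of tested genes. The adjusted p was under 0.05 at any fold for 5 members. The unadjusted p was under 0.05 for 6, against 6134 of the 12347 tested genes. Of the 5, Anxa2, Anxa5, Anxa6 and Anxa11 were higher in sort 1, as were 21.3% of tested genes, and Anxa1 was higher in sort 2, as were 22.1%. Over the members the log2 ratio of sort 2 to sort 1 had a median of -0.08, and over all tested genes one of -0.0040. The edgeR exact test, which allows for a biological coefficient of variation of 0.232 estimated from the same libraries, called none of the 8 and 0.267% of tested genes. None of the 8 had an unadjusted edgeR p under 0.05, against 766 of the 12347 tested genes, and the smallest was 0.0601 for Anxa11.

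Anxa11 differed most, with 1071 reads in sort 1 and 543 in sort 2. Its log2 ratio of sort 2 to sort 1 was -0.91 (95% counting interval -1.07 to -0.77, adjusted p = 2.16e-33 by the exact binomial test), or 1.88 times higher in sort 1. This is just under the fold of 2 needed for a call. For Anxa2 the log2 ratio was -0.61 (-0.75 to -0.48, adjusted p = 2.83e-19 by the exact binomial test). For Anxa6 it was -0.54 (-0.60 to -0.48, adjusted p = 1.81e-62 by the same exact test). Anxa5 differed less, at -0.25 (-0.37 to -0.12). In edgeR's exact test, the adjusted p of Anxa11 was 0.850 and that of Anxa2, Anxa5 and Anxa6 was 1.

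The 4 remaining members had ratios above 0, and Anxa1 was the one of them that passed the test. Anxa1 had a log2 ratio of 0.18 (0.11 to 0.24, adjusted p = 8.10e-07 by the exact binomial test), or 1.13 times higher in sort 2. Anxa3 had 0.23 (0.02 to 0.46, adjusted p = 0.0748 by the exact binomial test) and Anxa4 0.28 (-0.01 to 0.57, adjusted p = 0.116 by the same exact test). Anxa7 had 0.09 (-0.14 to 0.31). Anxa3, Anxa4 and Anxa7 had 188 to 365 reads per library, and the ratio of Anxa1 lies within the interval of each, so a difference of that size was not detectable in them at this depth.

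**Figure D2:**
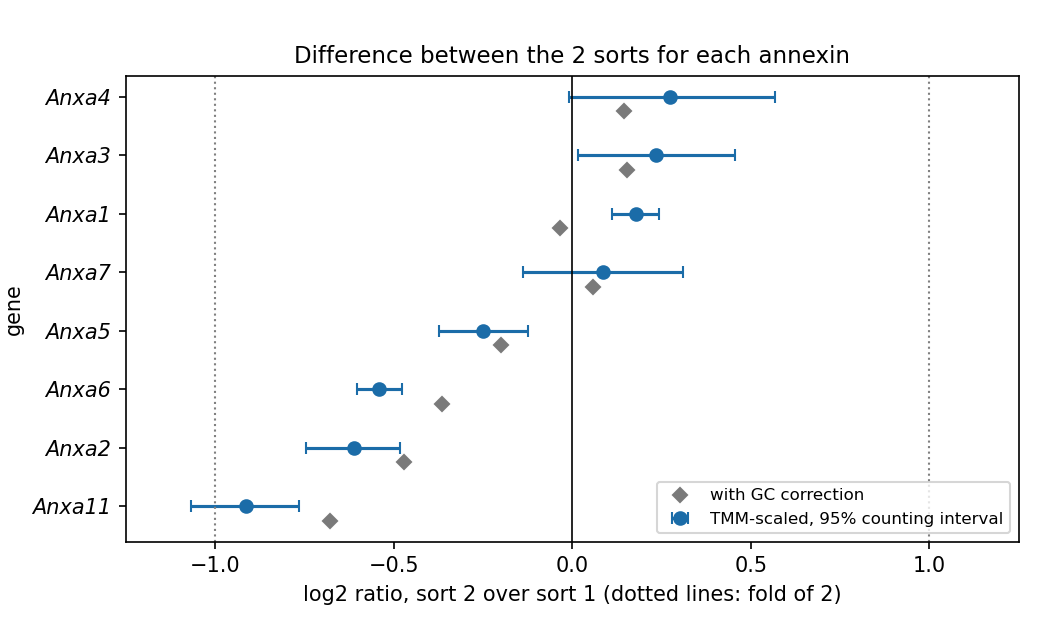
Log2 ratio of sort 2 to sort 1 for each of the 8 annexins, with circles for TMM-scaled counts, bars for the 95% counting interval and diamonds for the ratio after correction for transcript GC content. All circles lie between the dotted lines at a fold of 2, and Anxa11 is the lowest at -0.91.

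Between-sort ratios over all genes moved with the GC content of the transcript, so the members are given beside it. Across 8680 genes with at least 100 reads, which share the same 2 libraries, the Spearman correlation of the log2 ratio with GC content was -0.54. The 4 members with ratios above 0 had the lowest GC contents, at 43.6% for Anxa1, 46.1% for Anxa4, 47.3% for Anxa3 and 48.9% for Anxa7. Those with ratios below 0 had 50.9% for Anxa5, 53.1% for Anxa2, 54.0% for Anxa6 and 55.3% for Anxa11. After correction for GC content the log2 ratios were -0.68 for Anxa11, -0.47 for Anxa2, -0.36 for Anxa6 and -0.20 for Anxa5, each again with an adjusted p under 0.05 in the exact binomial test. That of Anxa1 became -0.035, with an adjusted p of 0.450 in this exact test. The higher level of Anxa1 in sort 2 was therefore not seen after this correction.

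**Figure D3:**
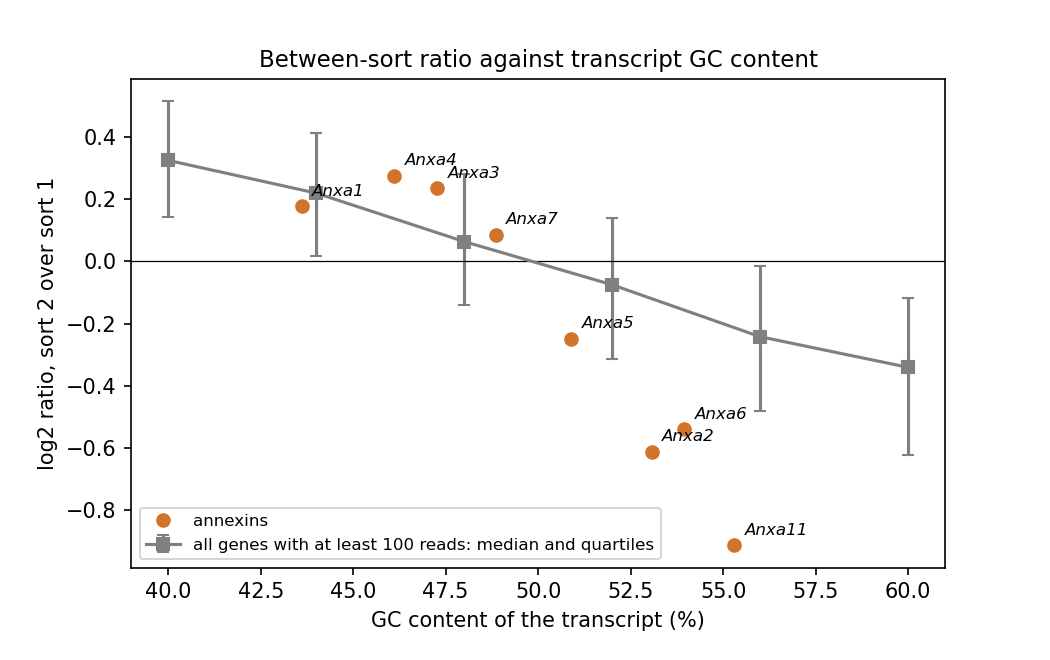
Log2 ratio of sort 2 to sort 1 against transcript GC content, with circles for the 8 annexins and squares and bars for the median and quartiles of all genes with at least 100 reads in GC classes 4 percentage points wide. Anxa1, Anxa4, Anxa3, Anxa7 and Anxa5 lie within the quartiles of their class, and Anxa2, Anxa6 and Anxa11 lie below them.

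Among genes of similar GC content, Anxa2 and Anxa6 lay below the lower quartile of -0.31 in the class from 50 to 54%, which held 1884 genes. Anxa11 lay below the lower quartile of -0.48 in the class from 54 to 58%, with 1576 genes. Monocyte and macrophage markers also summed to more in sort 1, 255 against 183 RPKM, of which Lyz2 alone gave 175 and 121. Among them C1qa, C1qb, C1qc and Cd163, genes of tissue macrophages, were called higher in sort 1 and Cx3cr1 higher in sort 2. These 5 of the 11 tested are named because they were called at a fold of at least 2, against 7.57% of tested genes. At any fold 7 of the 11 were higher in sort 1 and 2 in sort 2. C1qa, with 16 and 0 reads, and Cx3cr1, with 2 and 26, rest on few reads. Of the 12 mature neutrophil markers 8 were higher in sort 1 and 2 in sort 2 at any fold, with a median log2 ratio of -0.24. The most negative of them were Ltf with -0.75, Ngp -0.68, Lcn2 -0.61 and Camp -0.60, close to Anxa2 and Anxa6. The rest of the 12 did not share this size and lay between -0.27 and 0.14. Retnlg, the highest of them in level, had 0.14. Of the 6 genes listed for neutrophil primary granules and precursors, 5 were higher in sort 2 and none in sort 1 at any fold. Their median log2 ratio was 0.46. Of the 8 eosinophil markers 6 were higher in sort 2 and none in sort 1 at any fold, with a median of 0.40. Over all tested genes 21.3% were higher in sort 1 and 22.1% in sort 2 at any fold. The part of these cell types in the ratios of Anxa2, Anxa6 and Anxa11 was not tested.

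Of the S100 genes whose proteins bind annexins, S100a10, S100a11 and S100a6 were detected, each with higher RPKM in both sorts than Anxa2, Anxa1 and Anxa11 in turn. S100a10, the partner of annexin A2, had 39.9 RPKM in sort 1 and 31.5 in sort 2, 1.82 and 2.30 times the level of Anxa2. S100a11, the partner of annexin A1, had 524 and 666 RPKM, 8.21 and 9.68 times Anxa1. S100a6, a partner of annexin A11, had 51.6 and 28.4 RPKM, 4.67 and 5.08 times Anxa11. Beside Anxa6, which S100A6 also binds, S100a6 was at 1.09 times the level in sort 1 and 0.918 times in sort 2. The log2 ratio between the sorts was -0.27 for S100a10, 0.41 for S100a11 and -0.79 for S100a6. Each passed the adjusted p at any fold in the exact binomial test. Of all tested genes 21.3% passed it with a higher level in sort 1 and 22.1% with a higher level in sort 2. S100a4 had 0.643 and 0.790 RPKM, S100a1 had 0.562 and 0.841, and S100b had 2 reads in each sort. Of the 6 S100 genes listed, 3 were detected.

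Formyl peptide receptors, through which annexin A1 acts on leukocytes, were low. Fpr2, the receptor for annexin A1 and lipoxin A4, had 2.46 RPKM in sort 1 and 3.15 in sort 2, from 129 and 166 reads. Anxa1 was 26.0 and 21.8 times that level. Fpr1, the high-affinity receptor for bacterial formyl peptides, had 1.33 and 0.968 RPKM, so 1 of the 6 receptor genes in the tables was detected in both sorts. Fpr-rs6 had 1 read in sort 1, and Fpr3, Fpr-rs3 and Fpr-rs4 had none. Nr3c1, the glucocorticoid receptor, a known inducer of Anxa1, had 8.15 and 9.34 RPKM.

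Of 10 listed partners with penta-EF-hand domains or in the ALIX pathway, 9 were detected, 4 were higher in sort 2 and 3 in sort 1 at an adjusted p under 0.05 in the exact binomial test, against 22.1% and 21.3% of tested genes. Capns1, the calpain small subunit, led with 81.3 and 84.5 RPKM, followed by Capn2 with 15.9 and 17.5, Gca, grancalcin, with 13.3 and 16.9, and Sri, sorcin, with 12.2 and 11.7. Sri, which binds annexin A7, was 4.25 and 4.03 times the level of Anxa7. Pdcd6, which encodes ALG-2, had 4.86 and 5.24 RPKM. Anxa11 was 2.27 times Pdcd6 in sort 1 and 1.07 times in sort 2. Plscr3, at 0.869 and 0.642 RPKM, was the member of this list not detected.

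Proteins that move phosphatidylserine across the membrane, and so set the lipid that annexin A5 binds, were detected for 6 of 8 genes, with 5 higher in sort 2 and none in sort 1 by the exact binomial test at any fold, against 22.1% and 21.3% of tested genes. Of these 5, Tmem30a, Atp11b and Atp8a1 had GC contents of 39.2, 41.0 and 44.4%, with log2 ratios of 0.42, 0.14 and 0.27. These stand beside medians of 0.32 for genes from 38 to 42% GC and 0.22 for those from 42 to 46%. Ano6 and Atp11a, the rest of the 5, had GC contents of 50.3 and 51.9%, with log2 ratios of 0.13 and 0.31. Genes from 50 to 54% GC had a median of -0.08 and an upper quartile of 0.14. In edgeR's exact test none of the partner genes named here had an adjusted p under 0.05. Atp11b, a flippase, had 58.3 and 61.3 RPKM, Atp11a 13.3 and 15.7, the scramblase gene Ano6 11.3 and 11.8, and Atp8a1 5.05 and 5.81. Tmem30a, the subunit that flippases need to reach the plasma membrane, had 4.62 and 5.92 RPKM. Xkr8, the scramblase activated in apoptosis, had 1.253 and 1.313. Anxa5, at 16.9 and 13.5 RPKM, was below Atp11b in both sorts and below Atp11a in sort 2.

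Phospholipase A2 genes, whose products annexin A1 was first described to inhibit, were detected for 3 of 8. Pla2g7, the platelet-activating factor acetylhydrolase, had 49.68 and 49.96 RPKM. Pla2g4a, the cytosolic enzyme that releases arachidonic acid, had 18.6 and 16.1, Pla2g15 2.15 and 1.22, and Pla2g6 0.372 and 0.377. Pla2g5 and Pla2g2d had no read. Of the membrane repair genes 2 of 7 were detected, Chmp4b of the ESCRT-III complex with 6.06 and 6.66 RPKM and Ehd1 with 7.48 and 4.39. Ehd2 had 0.202 and 0.113 RPKM and Myof 4 and 5 reads. Trim72 had no read in sort 1 and 4 in sort 2, Syt7 none and 2, and Dysf, dysferlin, had none in either.

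**Figure D4:**
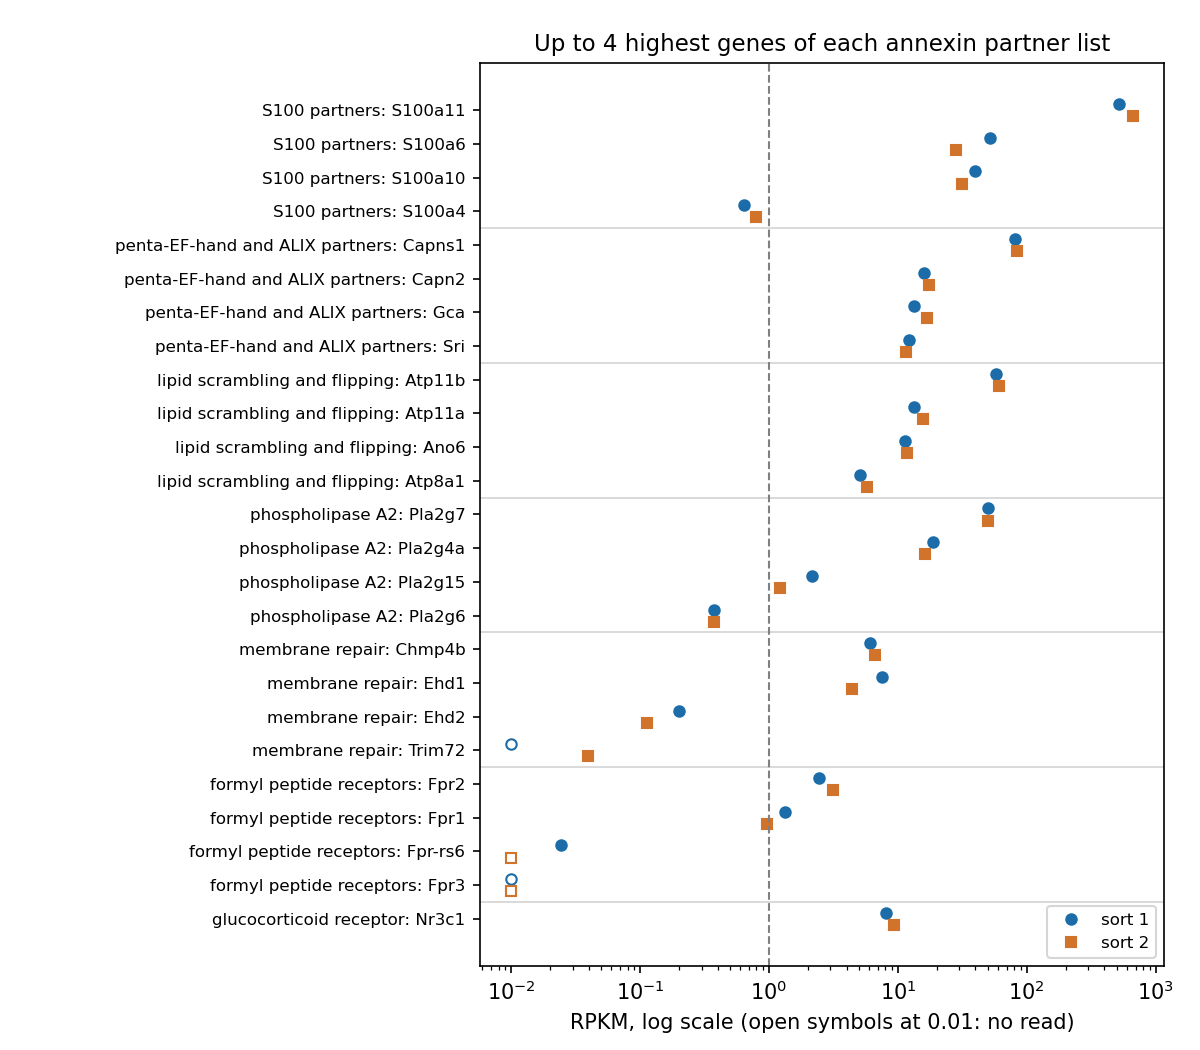
RPKM on a log axis for up to 4 highest genes of each partner list, with circles for sort 1 and squares for sort 2, and open symbols for genes without a read. S100a11 is highest at 524 and 666 RPKM, and of the formyl peptide receptors only Fpr2 lies above the dashed line at 1 RPKM in both sorts.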

How the data were processed

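Reads were aligned with STAR 2.4.0c to mm10, per the submitters' processing notes, and libraries were stranded (dUTP), per the labels' protocols. No source used here names the counting program or its strand setting. Deposited values are raw counts for each group of RefSeq transcripts, and RPKM computed by the authors. The deposited RPKM were divided by a library size of which the reads in the tables are 25.0% and 22.9%, so they lie 4.01 and 4.37 times below RPKM scaled to the table reads.

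Counts and RPKM were summed per gene symbol over 26099 rows. Levels are mean ± SD over 2 sorts. Sorts were compared by an exact binomial test (doubling the smaller tail) with TMM sizes (edgeR 4.0.16), ratios using a prior count of 2, and DESeq2 1.42.0 size factors as an alternative. The quasi-likelihood test could not be used with 1 library per sort. The binomial test was also run on simulated counts whose only noise was counting noise, without further spread between libraries or a trend with GC content. Such a run cannot show how the test behaves where these are present. GC content came from GENCODE M21 transcripts matched by RefSeq accession, for 22782 genes, and the correction was a loess fit over genes with at least 100 reads. The binomial p-values allow for counting noise in these 2 libraries only. Those of edgeR allow also for a spread estimated from the same libraries. Neither measures the spread between animals.

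The members and lists were chosen with earlier results of these data known. Named genes were all annexins, from each partner list at least the 4 highest and those without reads, the 3 genes nearest in level to the highest and lowest member, and the 2 highest markers of the main marker lists. The 5 called monocyte and macrophage markers, Ngp, Ltf, Lcn2, Camp, Lyz2, Nkg7, Igsf6, Pecam1, Xist, Kdm5d and Rn45s were chosen after their values were seen. Motifs and sequence stretches were chosen after the values were seen. A gene of the lipid scrambling and flipping list is not reported here, and its counts leave it out. Exact intervals carry 95% confidence.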

Additional observations from a re-analysis of the deposited data

How the results depend on the processing

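All 8 members were detected at minimums of 0.5 and 2 RPKM or 1 CPM, with the largest row per gene and in each sort alone (8 to 8), and 4 were at a minimum of 10 RPKM. The number of members called between the sorts was 0 under every scaling, count filter and test tried, but 2 with a fold of at least 1.5 (Anxa11 and Anxa2) and 5 without a minimum fold. Over all genes the calls went from 935 to 481 with at least 50 reads, 2157 at a fold of 1.5, 5360 at any fold and 33 with edgeR's exact test, which also left none of the 5 differences at any fold past its threshold. With the GC correction the log2 ratio of Anxa1 turned from 0.18 to -0.035, and the other 7 kept their direction. Scaling by total counts moved the median of all genes to 0.05 and brought Anxa3 and Anxa4 past the adjusted p, at 0.0217 and 0.0498 in the exact binomial test. No paired analysis was possible because both libraries belong to 1 group. Anxa4, with 188 and 218 reads, has the largest counting error of the 8 relative to its level, while the spread between sorts was widest relative to the mean for Anxa11, at 8.31 ± 3.86 RPKM.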
